A study of Rattus norvegicus with 6 samples.

Results

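On this rat array, 177 of 45751 probes (0.387%) carried at least 2 copies of the AU-rich element pentamer, ATTTA in DNA letters, and neither of the poly(A) signal hexamers AATAAA and ATTAAA. They were chosen from their 60-base sequences alone, with overlapping copies counted and no measured value used. Of these members, 162 held 2 copies and 15 held 3 copies. The study set rat INS-1 cells, an insulinoma line used as a beta cell model, treated with geniposide at 10 µmol/L for 24 h, against untreated INS-1 cells, with 3 arrays in each group. The labels give the tissue as islet, call geniposide a GLP-1 receptor agonist, and name no other treatment, genotype or allele for either group. Nothing in them states that the 3 arrays of a group hold RNA of separate cultures, so each p-value rests on a spread between arrays that may be technical. The probes bear running numbers and the files do not pair them with genes, so beta cell markers, gene lists and the place of a probe in its transcript were not analysed here.

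AU-rich elements are runs of AUUUA in the 3′ ends of many short-lived messengers, among them those of cytokines, growth factors and immediate early genes. The protein ZFP36, also called tristetraprolin, binds them and recruits the enzymes that remove the poly(A) tail, HNRNPD (AUF1) mostly speeds decay, and ELAVL1 (HuR) often stabilises the same messengers. A probe that holds the letters is not shown to lie in a working element, because the pentamer also occurs by base composition in A+T-rich sequence.

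Short stretches of 10 members are shown, because the results below turn on their arrangement of copies or on their values. Each runs 5′ to 3′ as printed on the array, and capitals mark the copies of ATTTA. The first 4 hold 3 copies that overlap by a single base, the next 3 hold 3 copies in other arrangements, the following pair has 2 copies spaced apart or side by side, and the last has 2 overlapping copies.
RATLNCRNA_13407: tcccagctATTTATTTATTTAttgtgtgcc
RATLNCRNA_8872: aATTTATTTATTTAtaaactgtctgctgct
RATLNCRNA_20493: tgtttgattATTTATTTATTTAtttgccaa
RATLNCRNA_16547: tcatttctATTTATTTATTTAttcctgcct
RATLNCRNA_1036: tttATTTAttaacagacATTTATTTAttgg
RATLNCRNA_12700: attcATTTAcgtATTTAttgATTTAgcaac
RATLNCRNA_10466: actATTTAttctATTTAttgaATTTAcaaa
RATLNCRNA_4591: ATTTAttcgactccccattggtgagATTTA
RATLNCRNA_39972: gatttctttgtgATTTAATTTAcccttcct
RATLNCRNA_23611: cacatcttttATTTATTTAattatgtgtcc

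At least 1 copy of ATTTA stood in 3806 probes (8.32%) and at least 2 copies in 211. Of those 211, 34 were left out of the set for a poly(A) hexamer. Of the 177 members, 52 had copies overlapping by 1 base. The nonamer TTATTTATT, the form of the element that ZFP36 family proteins prefer, was found in 23 members and in 69 of all probes (0.151%). The reverse complement of the nonamer was found in 149 of all probes. That sequence contains the poly(A) hexamer AATAAA, so by the rule no member can hold it. The counts of 69 and 149 therefore do not compare the strands of the element alone. The copies lay more often toward the 3′ side of the probe. Of 369 copies, 86 began in bases 1 to 19, 137 in bases 20 to 38 and 146 in bases 39 to 56. Of the members, 104 of the 176 that could be analysed held exactly 39 A or T bases, the median of the set, against a median of 34 among the 33324 analysed reference probes, which carry neither the pentamer nor a hexamer. The excess in signal or detection given for a set is therefore over reference probes of the same A+T count.

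Other letters were searched in the members and, for the reference, weighted to the members' A+T counts. The Pumilio motif TGTANATA, the binding sequence of another family of 3′ end regulators, was in 1 of the 177 (0.565%), against 2.05% of the reference at equal A+T count and 1.23% of all probes. A run of at least 5 T was in 14 (7.91%), against 20.6%. A CpG was in 89 (50.3%), against 39.7% of the reference at equal A+T count and 51.3% of all probes. The reverse complement of the pentamer was in 17 (9.60%), against 11.8%. These matches describe the letters only, on the printed strand unless stated.

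A signal is given on the log2 scale relative to the 75th percentile of its own array, so 0 marks that percentile. A probe's signal depends on how well it binds as well as on the amount of RNA, so signals of different probes are not set as RNA amounts. All 6 arrays gave a value for 176 of the 177 members, 1 having been left out for marked spots. The arrays carried 62976 spots. The share of analysed probes well above background ran from 61.3 to 67.0% on the geniposide arrays, lowest on geniposide 3. It ran from 65.1 to 67.4% on the untreated arrays. No spot was saturated. Geniposide 1 and the 3 untreated arrays lay in row 1 of the slide and geniposide 2 and 3 in row 2, so row and treatment are partly confounded.

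The members were brighter than reference probes of equal A+T count. Their mean signal over the 6 arrays had a median of −1.85, with quartiles of −5.29 and 0.72 and a range of −7.58 to 5.80. The median excess over the reference was 1.25 on the log2 scale, and 107 of the 175 members with a reference lay above it; the remaining member, with 48 A or T bases, had none. The excess was 0.687 when the background was corrected by the normexp method in place of the scanner's own subtraction. Among all analysed probes, 52 members (29.5%) ranked above the upper quartile and 33 (18.8%) below the lower quartile, with a median percentile of 61.3. The brightest analysed probe, a reference probe, read 9.10, so the members stopped short of the top of the arrays.

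Among probes without a hexamer, the excess was larger in classes with more copies. Probes with 1 copy and no hexamer, just outside the rule, had a median of −3.22 and an excess of 0.28 (2891 probes). The 161 members with 2 copies had a median of −2.10 and an excess of 1.17. The 15 with 3 copies had a median of −0.82 and an excess of 1.87, and 12 of the 15 lay above their reference. The difference between these classes was not tested, as probes are not replicates of a condition. A large excess did not require the pentamer. Probes with a hexamer, outside the rule, had an excess of 2.14 with no copy (8590 probes), 2.39 with 1 copy (703) and 3.36 with at least 2 copies (34). A similar excess was found for the reverse complement, TAAAT. The 101 probes with at least 2 copies of TAAAT and neither ATTTA nor a hexamer had a median of −2.03 and an excess of 1.25. The hexamer rule reads the printed strand only, so this set is not a mirror image of the members. The Pumilio motif was in 16 of the 101 (15.8%).

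The excess held in most, not all, classes of A+T count. At 39 A or T bases the members had a median of −1.52 (104 members), against −2.69 for the reference and −2.80 for probes with 1 copy. At 33 bases the 21 members had −2.71 against −3.97, and at 37 bases the 10 members had 0.05 against −3.68. At 35 bases the 5 members lay below the reference, at −4.68 against −3.86. By the distance between the closest copies, the excess was 1.25 for the 51 members with overlapping copies, 1.35 for the 57 whose closest copies began 5 to 15 bases apart and 1.15 for the 68 whose copies lay further apart. It was 5.33 for the 4 members with 3 overlapping copies, and 2.36 for the 22 analysed members with the nonamer against 1.22 for the 154 without it. These small classes were not tested. Members without a CpG were the brighter ones, with a median of −0.91 and an excess of 2.06 (88 members), against −2.31 and 0.73 for the 88 with one. The reference, pooled over the same A+T counts, had medians of −3.67 without a CpG and −3.71 with one. Why the members were brighter was not tested.

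Detection followed the order of signal over the classes of copy number. It did not for the nonamer, where 63.6% of the members with it were detected on all 6 arrays, against 68.2% without it. Well above background on all 6 arrays were 119 of the 176 members (67.6%), against 60.1% of all analysed probes, while 36 (20.5%) were so on none and 21 on some. Over the 175 members with a reference the share was 68.0%, against 58.4% at equal A+T count, an excess of 9.60 percentage points. The excess was 2.09 points for 1 copy, 8.50 points for 2 copies and 21.3 points for 3 copies, of which 12 of 15 (80.0%) were detected throughout. It was 8.87 points for the reverse complement. For probes with a hexamer it was 11.2 points with no copy, 11.9 with 1 copy and 26.7 with at least 2 copies. The shares of the groups overlapped. On geniposide arrays 1 to 3, 131, 126 and 123 members were well above background, and on untreated arrays 1 to 3, 129, 133 and 128. The share was 72.0% ± 2.30 (SD, n = 3) with geniposide and 73.9% ± 1.5 (SD, n = 3) without.

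Among the 15 members with 3 copies, like letters stood in probes of very different signal. RATLNCRNA_13407, RATLNCRNA_8872, RATLNCRNA_20493 and RATLNCRNA_16547 share the same core, ATTTATTTATTTA, the only 4 members that hold it. Their mean signals were 3.24, 2.79, 1.21 and −5.29, and the last was well above background on 1 array. RATLNCRNA_16547 read −5.64, −5.88 and −3.68 on geniposide arrays 1 to 3 and −5.30, −5.52 and −5.70 on the untreated arrays, so its single detection and its highest value came from geniposide 3. RATLNCRNA_10466, with 3 separate copies, was well above background on no array, yet also read highest on geniposide 3, at −5.54 against −7.73 to −7.01 elsewhere. RATLNCRNA_12700, whose 3 copies are spaced in nearly the same way, was detected on all 6 arrays at a mean of 0.10.

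The brightest members had 2 copies. RATLNCRNA_32908 read 5.78, 5.84 and 5.69 with geniposide and 5.80, 5.81 and 5.87 without. RATLNCRNA_11216 read 5.60, 5.51 and 5.41 with geniposide and 5.54, 5.60 and 5.58 without. RATLNCRNA_3837 read 4.78, 4.83 and 4.78 with geniposide and 4.89, 4.89 and 4.86 without. The groups overlapped for the first pair. For RATLNCRNA_3837 they did not, by a difference of −0.08 that did not pass (limma adjusted p = 0.534). For RATLNCRNA_32908 the difference was −0.05 (limma adjusted p = 0.736) and for RATLNCRNA_11216 −0.07 (limma adjusted p = 0.681).

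Members that share sequence gave a check on how far a signal belongs to the probe. Of the members, 12 formed 6 pairs sharing at least 25 bases, so they are not independent of each other. For 3 pairs with 56 or 57 bases in common the mean signals lay within 0.25 of each other. RATLNCRNA_13845 and RATLNCRNA_8501 had means of 4.05 and 3.80, RATLNCRNA_40319 and RATLNCRNA_45498 of 2.14 and 2.28, and RATLNCRNA_15926 and RATLNCRNA_44262 of −2.62 and −2.46. Only the first of these pairs did not overlap over the 6 arrays, at 3.98 to 4.08 against 3.76 to 3.82. In the fourth such pair neither probe was detected, at −7.38 for RATLNCRNA_30816 and −7.13 for RATLNCRNA_9278. The remaining pairs share all 60 positions but 1, outside the pentamers. Their 15-base stretches are shown with the differing base in capitals, because each pair differs by that base alone. Positions count from 1 at the probe's 5′ end.
RATLNCRNA_29777: aaaggtgCtttcagc
RATLNCRNA_42206: aaaggtgGtttcagc
RATLNCRNA_42031: ggttgctTgggtgca
RATLNCRNA_7096: ggttgctAgggtgca
With C48G, RATLNCRNA_29777 read −0.89 to −0.70 over the 6 arrays (mean −0.78) and RATLNCRNA_42206 read −0.37 to −0.21 (mean −0.27), with no overlap. With T8A, RATLNCRNA_42031 was detected on all 6 arrays at a mean of −4.08 and RATLNCRNA_7096 on 1 array at a mean of −5.54. Whether each pair reads a single transcript or a pair of related ones was not analysed here.

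Some members share at least 25 bases with probes outside the set. RATLNCRNA_28166, at −4.41, and RATLNCRNA_42018, at 0.36, read close to their partners RATLNCRNA_8262, at −4.23, and RATLNCRNA_25922, at 0.50. RATLNCRNA_30032 was detected on no array, at −5.90, while RATLNCRNA_43686 on the same strand, which holds a poly(A) hexamer, read 1.35. RATLNCRNA_9851 was also detected on no array, at −5.53, while RATLNCRNA_12473 on the opposite strand, with a hexamer too, read 2.91. RATLNCRNA_38247 shares 25 or more bases with 6 probes whose means ran from 4.47 to 4.57. Those 6 stood out on geniposide 3, at 5.49 to 5.56 there against 4.18 to 4.62 on the other arrays. RATLNCRNA_38247 itself read 2.20 on geniposide 3 and 1.94 to 2.08 elsewhere, and its difference between groups was 0.02 (limma adjusted p = 0.944).

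The comparison of geniposide with untreated cells asked whether any of these probes changed with treatment. No member passed. Of the 126 members bright enough to test, 0 had an adjusted p under 0.05 in limma over all 29246 tested probes, where the share called was also 0%. The smallest adjusted p among members was 0.137 and among all tested probes 0.0878. At an unadjusted p under 0.05, 13 members (10.3%) lay higher with geniposide, against 7.33% of all tested probes, and 6 (4.76%) lay lower, against 5.05%. The 3 arrays of a group did not overlap those of the other for 14 members in the higher direction (11.1%), against 9.7% of all tested probes, and for 17 in the lower direction (13.5%), against 11.5%. The members' shares were near the background in each direction. With the median in place of the 75th percentile as the scale, 11 members lay above and 19 below the untreated level at an unadjusted p under 0.05, and the split over all tested probes turned from 2143 higher and 1476 lower to 1237 higher and 4326 lower.

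The sizes were small. The median difference, geniposide minus untreated, was −0.0018 on the log2 scale over the 126 members, with quartiles of −0.093 and 0.080, against −0.012 over all tested probes and −0.0016 over the tested reference. Of the members, 62 (49.2%) lay above 0, against 45.8% of all tested probes. None of the 126 members differed by 2-fold or more, against 55 of all 29246 tested probes. The members' differences ran from −0.49 to 0.82. The 95% interval of the difference excluded a 2-fold change in either direction for 122 of the 126 members (96.8%), against 97.7% of all tested probes. Its median half-width over the members was 0.18. The spread within groups was like that of other probes. The median SD of a member was 0.104 with geniposide and 0.0584 without, against 0.103 and 0.0687 over all tested probes.

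Both members with the smallest p in the higher direction had 2 copies. RATLNCRNA_39972, whose copies stand side by side, read −0.23, −0.24 and 0.00 on geniposide arrays 1 to 3 and −0.56, −0.68 and −0.62 on untreated arrays 1 to 3. Every geniposide array lay above every untreated one, by 0.46 ± 0.082 (SE; 1.38-fold), and the difference did not pass (limma adjusted p = 0.137). It passed in 1 of 18 settings, limma with a trended and robust prior (adjusted p = 0.0334), where RATLNCRNA_9955, singled out after its values were seen, passed as well. That setting called 173 of all 29246 tested probes (0.592%) and 2 of the 126 members. RATLNCRNA_4591 read −1.44, −1.51 and −1.31 with geniposide and −1.77, −1.77 and −1.73 without. Its groups did not overlap either, and the difference of 0.33 ± 0.066 (SE) did not pass (limma adjusted p = 0.151).

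In the lower direction the smallest p values belonged to a member with 3 copies and a member with 2 copies, both of which hold the nonamer. RATLNCRNA_1036 read 2.57, 2.61 and 2.73 with geniposide and 2.91, 2.82 and 2.86 without, a difference of −0.23 ± 0.063 (SE; limma adjusted p = 0.253). RATLNCRNA_23611, whose overlapping copies are shown above, read 0.53, 0.52 and 0.52 with geniposide and 0.67, 0.68 and 0.71 without, a difference of −0.16 ± 0.048 (SE; limma adjusted p = 0.269). Neither pair of groups overlapped and neither difference passed in any of the 18 settings. Of the bright members with the triple core, RATLNCRNA_13407 read 3.11, 3.19 and 3.24 with geniposide and 3.29, 3.33 and 3.28 without (difference −0.12, limma adjusted p = 0.440). RATLNCRNA_8872 read 2.83, 2.69 and 2.88 with geniposide and 2.85, 2.78 and 2.74 without (difference 0.01, limma adjusted p = 0.949). Only the latter's groups overlapped.

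The members with 3 copies leaned lower, by small amounts. Of the 12 tested, 2 (16.7%) had a difference above 0, against 45.8% of all tested probes, and the median difference was −0.12. Their groups did not overlap for 5 (41.7%), all in the lower direction, against 11.5% of all tested probes lower and 9.7% higher. At an unadjusted p under 0.05, 2 lay lower and 0 higher, against the background of 5.05% and 7.33%. Relative to the untreated mean, the median deviation of the 12 was −0.13, −0.077 and −0.078 on geniposide arrays 1 to 3 and −0.019, 0.019 and −0.014 on untreated arrays 1 to 3. Against reference probes of the same A+T count the median difference was −0.11, and without geniposide 1 it was −0.0522. The 114 tested members with 2 copies had a median difference of 0.0071, with 60 (52.6%) above 0. The gap between the classes was not tested.

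The direction of a member's difference moved with its brightness, as it did for all probes. The tested probes were split by mean signal into 3 equal classes. In the dimmest class, 28 members had a median difference of 0.10, and at an unadjusted p under 0.05 there were 5 higher and 0 lower. In the middle class, 53 members had a median of 0.011, with 6 higher and 4 lower, and in the brightest class 45 members had −0.053, with 2 and 2. Over all tested probes the medians in the same order were 0.0325, 0.00069 and −0.043. The shares of all tested probes higher and lower were 12.4% and 5.55% in the dimmest class, 7.92% and 4.29% in the middle one and 1.70% and 5.30% in the brightest. In the brightest class, 35.6% of the members lay above 0, against 34.4% of the reference and 30.5% of all tested probes. Of the 13 members that lay higher, 11 were thus outside the brightest class. The part of brightness in these counts was not tested.

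The summary per array separated the groups, by an amount and a direction that depended on the matching and the background correction. The median excess of the members over the reference was 1.17, 1.20 and 1.24 on geniposide arrays 1 to 3 and 1.36, 1.30 and 1.33 on untreated arrays 1 to 3. All untreated arrays lay above all geniposide arrays, at 1.33 ± 0.0292 (SD, n = 3) against 1.21 ± 0.0361 (SD, n = 3), a difference of −0.13 on the log2 scale. This is a difference between medians over probes. The members' own median signal was not lower with geniposide, at −1.83 ± 0.0725 against −1.92 ± 0.0883 (SD, n = 3), and the groups overlapped. The median of the whole reference was higher with geniposide with no overlap, at −3.50 ± 0.0337 against −3.57 ± 0.0186 (SD, n = 3). Taken probe by probe with no filter on dim probes, the members' median difference above the reference was −0.014. When the reference was matched on signal as well as on A+T count, the difference per array was −0.0080, and with the normexp correction it was −0.012. With the members set against all reference probes, unmatched, it was 0.022. For the reverse complement the groups overlapped, at 1.17 ± 0.0433 with geniposide and 1.24 ± 0.0481 without (SD, n = 3). For probes with 1 copy the values were 0.26 ± 0.0168 and 0.29 ± 0.0217, for members with 2 copies 1.13 ± 0.0262 and 1.18 ± 0.0258, and for members with 3 copies 1.89 ± 0.0668 and 1.91 ± 0.0449 (SD, n = 3 in each group), and the groups overlapped in each. Probes with a hexamer showed the same order as the members with no overlap, at 2.07 ± 0.0063 against 2.15 ± 0.0011 with no copy, 2.31 ± 0.0170 against 2.48 ± 0.0137 with 1 copy and 3.26 ± 0.0765 against 3.41 ± 0.0582 with at least 2 copies (SD, n = 3 in each group). The excess of all analysed probes had this order too, with no overlap, at 0.330 ± 0.0081 against 0.347 ± 0.0054 (SD, n = 3). The separation was thus not particular to the members.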

How the data were processed

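Each of the 6 arrays was hybridised with Cy3-labelled RNA of 1 sample, per the labels' protocols. The deposited scanner files hold spot intensity, made with Agilent Feature Extraction 12.0.3.1 per the file headers, while the submitters' processing notes name version 10.7. The processed intensity is background-subtracted per the file headers. The authors' deposited table of log2 values, whose scaling is not given in the sources used here, served as an alternative. The notes name limma without a role.

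Control spots (1319) and marked spots were left out, log2 processed intensity was averaged over the spots of a probe, and each array's 75th percentile was subtracted. Of 45718 probes, 29246 (64.0%) exceeded background clearly on every array of either group and were tested with limma 3.58.1 in R 4.3.3 (lmFit, eBayes, 2-sided, Benjamini-Hochberg over all tested probes, threshold 0.05). The scripts were tested on simulated data. Sequence counts used Python 3.11.15 with pandas 2.3.3 and numpy 2.4.6. The reference was probes of equal A+T count without the pentamer or either hexamer, at least 1726 per count. Shares, levels and medians over members are descriptions with no test.

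The members and lists were chosen with earlier results of these data known. Members named for their difference were the 2 smallest p in each direction. Those named for signal were the 3 brightest of each class, which for 3 copies are also the 3 with the most copies after ties were broken by signal, and others were singled out afterwards for shared or like sequence. Gene lists, cell markers and protein matches were not applied, since no table ties these probes to genes. Of the alternatives, 3 were chosen after seeing the data: matching also on CpG, matching also on the number of spots, and a reference without the reverse complement. Precision is limited by 3 arrays per group.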

Additional observations from a re-analysis of the deposited data

How the results depend on the processing

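Among recomputed values of the main results, 243 stayed within the replicate spread, or equalled the count or stayed within 1.5 times it, whatever their sign. Part of these could not move, so their number is no measure of robustness. Non-overlap ignores the prior, weights and blocks of the fit. A constant taken from each array leaves an excess over the reference unchanged, and a change of prior leaves the differences unchanged. Another 50 values moved by more than the spread, and 10 counts were larger and 8 smaller by more than that ratio. The smaller ones include counts over the 14 tested members with the nonamer. The larger ones include counts over sets with more tested probes. The cause of the other moves was not tested, apart from those set by construction. The count of members called was 0 in every setting but a trended and robust prior, where it was 2 (173 of all 29246 tested probes, 0.592%). Replicate numbers only name the samples: deviations of same-numbered samples correlated at −0.0039, 0.018 and −0.097. With the replicate number as a block, 0 members were called, 16 lay above and 3 below the untreated level at an unadjusted p under 0.05, against 6.95% and 3.62% of all tested probes. A fixed row block sets geniposide 1 alone against the untreated arrays.

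The counts below come from tested sets of unlike size. These held 126 members with the fixed row block, median scaling or array weights, and 126 or 127 with 1 array left out. They held 176 with no filter on dim probes and 14 with the nonamer, and keeping hexamer-bearing probes added 31. Members higher at an unadjusted p under 0.05 (13) numbered 8 with the fixed row block and 0 of 14 with the nonamer. They numbered 9 to 17 with 1 array left out. Members lower (6) numbered 19 with median scaling, 11 with array weights and 14 with hexamer-bearing probes kept. They numbered 3 of 14 (21.4%) with the nonamer, against 5.05% of all tested probes. With 1 array left out they numbered 2 to 8, 2 without untreated 1 and 2 without untreated 2. Non-overlapping higher members (14) numbered 22 of 176 with no filter on dim probes. They numbered 0 of 14 with the nonamer, against 9.7% of all tested probes. With 1 array left out they numbered 15 to 29, 29 without geniposide 3 and 23 without untreated 2. Non-overlapping lower members (17) numbered 34 of 126 with median scaling and 26 with hexamer-bearing probes kept. They numbered 4 of 14 (28.6%) with the nonamer, against 11.5% of all tested probes. With 1 array left out they numbered 20 to 29, 29 without geniposide 1. Fewer arrays overlap less by construction. Beyond the main fit, non-overlap over all tested probes is not given here, so counts from other fits lack a background. Over all tested probes the count lower (1476) was 4326 (14.8%) with median scaling and 2111 (7.22%) with array weights. The count higher (2143) was 1525 (5.21%) with the fixed row block. With 1 array left out, 4.90 to 7.58% of all tested probes lay higher and 3.18 to 5.41% lower.

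The median difference (−0.0018) was −0.068 with median scaling, 0.021 with the percentile over detected probes, 0.036 with no filter, −0.050 with the nonamer and −0.023 to −0.0032 with 1 array left out. Its excess over the reference (0.00082) was −0.038 with the nonamer and −0.020 to 0.0089 with 1 array left out. The group difference in the excess per array (−0.13) was −0.012 with normexp, −0.051 matched on A and T counts, −0.0080 matched on signal, 0.022 unmatched, −0.074 with hexamers kept, −0.23 with the nonamer, −0.048 matched on CpG and −0.15 to −0.11 with 1 array left out. For 3 copies the difference above the reference (−0.11) was −0.065 with normexp, −0.080 with quantile normalization, −0.081 in the authors' deposited table and −0.16 with no filter. It was −0.14 with the fixed row block, −0.065 with the nonamer (at most 5 members) and −0.13 to −0.052 with 1 array left out.

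The members' median signal (−1.85) was −1.41 with normexp, 1.32 with median scaling, −3.50 with the percentile over detected probes, −1.52 with hexamers kept, −1.52 with copies counted without overlap and −1.55 with the nonamer. Its excess (1.25) was 0.687 with normexp, 0.98 matched on A and T counts, 1.71 unmatched, 0.84 against a reference with or without hexamers, 1.42 with hexamers kept, 1.39 without overlap, 2.36 with the nonamer, 1.32 against a reference without the reverse complement, and 1.21 to 1.26 with 1 array left out. For 3 copies the excess (1.87) was 1.21, 2.56, 2.75 and 1.55 in the first 4 of these settings, 1.97 matched on CpG and 2.0 without the reverse complement. With the nonamer it was 6.72, a median over 5 members that is the value of RATLNCRNA_1036. Detection (67.6%) was 70.5% with hexamers kept, 63.6% with the nonamer and 67.6 to 69.9% with 1 array left out. Its excess (9.60 points) was 6.82 matched on A and T counts, 7.52 with hexamers in the reference and 12.4 with hexamers kept.

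Single members that turned sign did so around 0 and passed in no setting. RATLNCRNA_8872 (0.01) was −0.011 with normexp, −0.053 with median scaling, −0.039 with array weights and −0.027 to 0.069 with 1 array left out. RATLNCRNA_32908 (−0.05) was 0.0017 with normexp, 0.0046 with quantile normalization and 0.0067 in the authors' deposited table. RATLNCRNA_11216 (−0.07) was 0.023 with the fixed row block. Gene lists and protein matches were not run. Signal over background limits the members too dim to test, which have no difference here.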

Other observations

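The 34 probes with at least 2 copies of ATTTA that were left out for a poly(A) hexamer leaned lower with geniposide. This group was looked at after the data were seen, and its counts are descriptions with no test. All 34 could be analysed, their median signal was 0.17, and 31 were tested. None passed in limma (smallest adjusted p = 0.205). At an unadjusted p under 0.05, 8 of the 31 (25.8%) lay lower and 1 (3.23%) higher, against 5.05% and 7.33% of all tested probes. The groups did not overlap for 9 (29.0%) in the lower direction and for 1 (3.23%) in the higher, against 11.5% and 9.7% of all tested probes. The median difference was −0.077 on the log2 scale. Relative to the untreated mean, the median deviation of the 31 was −0.024, −0.086 and −0.12 on geniposide arrays 1 to 3, and −0.018, 0.022 and 0.0015 on untreated arrays 1 to 3.

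Of the 8 lower probes, 7 were among the 15 in the brightest of the 3 signal classes of tested probes, where 5.30% of all tested probes lay lower. With a hexamer and 1 copy, 48 of 509 tested probes (9.43%) lay lower and 21 (4.13%) higher. With a hexamer and no copy, 377 of 6135 (6.15%) lay lower and 240 (3.91%) higher. The median differences were −0.054 and −0.041. Without a hexamer, 4.66% of the tested reference, 4.20% of the 1810 tested probes with 1 copy, 3.51% of the members with 2 copies and 16.7% of the 12 with 3 copies lay lower. The part of brightness in these counts was not tested.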
